A study of Mus musculus with 6 samples.

Results

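The 34 genes described here are p53 and genes that p53 switches on or that stop the cell cycle. They were taken from a list of 34 symbols, and all 34 had a mean of at least 10 normalised reads over the 6 libraries. All are among the 13490 genes tested, of 24404 listed. The libraries hold RNA from biliary epithelial cells (BECs), the cells lining the bile ducts, isolated from the intrahepatic bile ducts of adult C57BL/6 mice. All mice had 1 week of DDC (diethoxycarbonyl-dihydrocollidine), a toxin that injures bile ducts. Klf5 LKO (3 libraries) had the genotype Alfp-CreTg/+;Klf5flox/flox, and control (3 libraries) Alfp-Cre+/+;Klf5flox/flox. Both groups carried the floxed Klf5 alleles, and the Cre transgene was present in Klf5 LKO only, and effects of Cre and of the Klf5 deletion cannot be told apart. Klf5 codes for a zinc-finger transcription factor. Alfp-Cre is driven by liver-specific control elements that are active in the common precursors of hepatocytes and BECs, so the deletion is not limited to the bile ducts.

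In background terms, p53 is a transcription factor that is kept low by the ubiquitin ligase Mdm2 and its partner Mdm4. When DNA damage or another stress frees it, p53 binds a pair of short DNA repeats and raises genes that halt division, such as Cdkn1a, that trigger mitochondrial cell death, such as Bax, Bbc3 and Pmaip1, or that limit growth and repair DNA. Its activity is set mostly by protein stability, so the mRNA of Trp53 itself does not report it. Many of these genes also answer to other signals, among them the FOXO factors, the stress factor ATF4 and the immediate early response.

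Of the 34 genes, 2 rose in Klf5 LKO and 0 fell, where 0.652% of all tested genes were called in either direction, 0.163% higher and 0.489% lower (limma on log2(normalised count + 1), Benjamini-Hochberg adjusted p under 0.05). The 2 were Gdf15, a secreted stress factor, 2.55-fold higher, and Plk2, a kinase of the polo family induced by stress, 1.83-fold higher. The inhibitor Cdkn1a, the feedback regulator Mdm2, the cyclin Ccng1 and the death gene Bax did not pass. The median log2 fold change over the 34 was 0.04, against -0.01 over all tested genes, and 28 of the 34 lay within 0.5 of 0.

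The promoters of 4 genes are shown first, because they differ in the DNA repeat that p53 recognises. The 2 genes that rose lack it in this window, as do most of the 28 genes with a window, of which 10 hold it. The promoters shown are RefSeq windows on GRCm38.p6, the assembly of mm10, from 250 bases before to 50 bases after a start site. They are printed 5′ to 3′ on the gene's strand. Capitals mark an exact match to the 10-base p53 consensus decamer or to the cyclic AMP response element TGACGTCA, searched on both strands. Gdf15 (chr8:70632407-70632706, minus strand, 1 of 2 windows, the other also lacking both) has neither, Plk2 (chr13:110394794-110395093, plus strand) has 1 cyclic AMP response element, Cdkn1a (chr17:29090729-29091028, plus strand, the upstream of 2 starts in the table) has 2 p53 decamers, and Mdm2 (chr10:117710709-117711008, minus strand) has 1. The window at the other Cdkn1a start has neither motif.
Gdf15: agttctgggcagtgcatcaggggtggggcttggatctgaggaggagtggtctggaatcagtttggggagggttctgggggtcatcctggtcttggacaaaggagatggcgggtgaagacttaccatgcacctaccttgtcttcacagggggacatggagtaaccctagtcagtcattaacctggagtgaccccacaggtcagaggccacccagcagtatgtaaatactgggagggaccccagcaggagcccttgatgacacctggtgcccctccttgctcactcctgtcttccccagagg
Plk2: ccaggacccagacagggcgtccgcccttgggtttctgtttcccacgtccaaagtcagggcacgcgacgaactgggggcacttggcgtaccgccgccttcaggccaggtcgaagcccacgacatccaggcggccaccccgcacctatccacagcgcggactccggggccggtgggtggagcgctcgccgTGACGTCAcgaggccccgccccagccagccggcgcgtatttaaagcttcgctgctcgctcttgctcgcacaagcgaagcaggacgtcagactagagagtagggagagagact
Cdkn1a: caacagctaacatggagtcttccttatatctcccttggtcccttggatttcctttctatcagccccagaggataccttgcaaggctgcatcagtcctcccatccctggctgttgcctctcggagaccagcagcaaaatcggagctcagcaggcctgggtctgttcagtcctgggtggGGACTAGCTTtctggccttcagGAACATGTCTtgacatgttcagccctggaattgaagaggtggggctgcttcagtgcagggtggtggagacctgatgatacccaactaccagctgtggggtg
Mdm2: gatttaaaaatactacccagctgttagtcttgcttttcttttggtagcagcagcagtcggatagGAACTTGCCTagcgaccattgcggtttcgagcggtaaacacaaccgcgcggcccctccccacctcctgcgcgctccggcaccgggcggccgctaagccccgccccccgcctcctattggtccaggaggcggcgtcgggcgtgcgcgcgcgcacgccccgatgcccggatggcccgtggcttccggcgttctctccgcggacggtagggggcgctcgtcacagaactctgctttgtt

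Windows were found for 28 of the 34 genes, 36 windows in all. A p53 decamer lay in at least 1 window of 10 of these 28 genes, against 8.25% of the 10250 tested genes with a window. The 10 were Trp53, Mdm2, Cdkn1a, Ccng1, Bax, Gadd45a, Sesn1, Aen, Ei24 and Polk. In these windows the first base of the decamer lay 73 and 51 bases before the upstream start of Cdkn1a. It lay 186 before the start in Mdm2, 201 before in Bax and 185 before in Ccng1. None of the 10 was called between the groups, where 0.652% of all tested genes were called. Apart from Gdf15 and Plk2, the genes with a window but no decamer were not called either. The cyclic AMP response element was in the windows of Plk2 and Btg2, against 3.57% of tested genes, and in Plk2 it began 62 bases before the start. The GC box GGGCGG was in 23 of the 28 genes (68% of tested genes) and the CACCC box CCACCC in 12 of 28 (41%), both being motifs of the family to which Klf5 belongs. Gdf15 had 2 CACCC boxes and no GC box in the window shown, and Plk2 had 2 of each. The AP-1 motif TGANTCA was in 2 of 28 (6.6% of tested genes) and the amino acid response motif TGATGNAA in 2 of 28 (2.71%), in Gadd45g and Polk. None of the matches in the windows of Gdf15, Plk2, Cdkn1a and Mdm2 overlapped a match to another motif. Each match is a description of letters and not of binding. Single decamers were searched rather than pairs, and sites outside these windows were not searched.

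Values are read counts divided by 1 size factor per library, called normalised counts. Total reads in genes lay between 11726934 and 24784167 per library, and 1 read was worth 0.745 to 1.58 normalised counts. Klf5 held 2056, 2018 and 2316 in the controls against 977, 1192 and 1183 in Klf5 LKO. It was lower by a log2 fold change of -0.93 with an SE of 0.14 (adjusted p = 0.0103). The counts are per gene, so they may include exons outside the deleted part, and the source of the remaining reads was not tested. The call ended without control 1, 2 or 3 (adjusted p from 0.0540 to 0.0681), at log2 fold changes between -0.96 and -0.87. All 9 BEC markers were present, with summed counts of 357203 to 422495 in Klf5 LKO and 415531 to 531925 in control, mostly from Spp1. The sum hides log2 fold changes in both directions, of which only that of Sctr passed. For 4 of the 9 markers, named after their values were seen, the groups did not overlap, against 15.6% of all tested genes. Sctr, the secretin receptor, rose (log2 fold change 0.78, adjusted p = 0.0275), and the chloride channel gene Cftr had a log2 fold change of 0.58 (adjusted p = 0.0935). The keratin genes Krt19 and Krt7 had log2 fold changes of -0.74 and -0.63 (adjusted p = 0.0988 and 0.0720). The part of this in the results on the 34 genes was not tested. The hepatocyte markers summed to 10379 to 14808 and 11182 to 14869, and 8 of 8 were detected. The endothelial markers, 7 of 7 detected, summed to 90.4 to 214 and 96.6 to 434. Of the 8 stellate and fibroblast markers, Col1a2, Col3a1, Lrat and Des were at 0 reads in every library, and the sums were 31.9 to 86.3 and 14.7 to 49.8. The leukocyte markers, 9 of 9 detected, summed to 1066, 82.0 and 228 in Klf5 LKO 1, 2 and 3 and to 2195, 988 and 142 in control 1, 2 and 3. In such bulk samples, fewer cells of a type and less RNA per cell cannot be told apart. Nothing in the labels ties each library to its own animal. The p-values therefore reflect library-to-library spread, possibly technical.

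Levels of different genes were compared as normalised counts per kilobase of exon. The 34 genes covered most of the range seen in these cells. Btg2, an antiproliferative gene of the immediate early kind, was highest at 2332 per kilobase, followed by the desmosome and p53 effector gene Perp at 1362 and by Trp53 at 1216. Trp53 lay above 94.7% of the 12971 tested genes with an exon length. Next came Btg1 at 1076, Bax at 1071 and Plk2 at 1035, and these neighbours did not differ by more than the spread between libraries. Cdkn1a and Mdm2 were in the middle of the 34, at 249 and 236 per kilobase. At the low end were Zmat3, which codes for an RNA-binding zinc-finger protein, at 25.9 and the receptor gene Eda2r at 3.08.

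**Figure D1:**
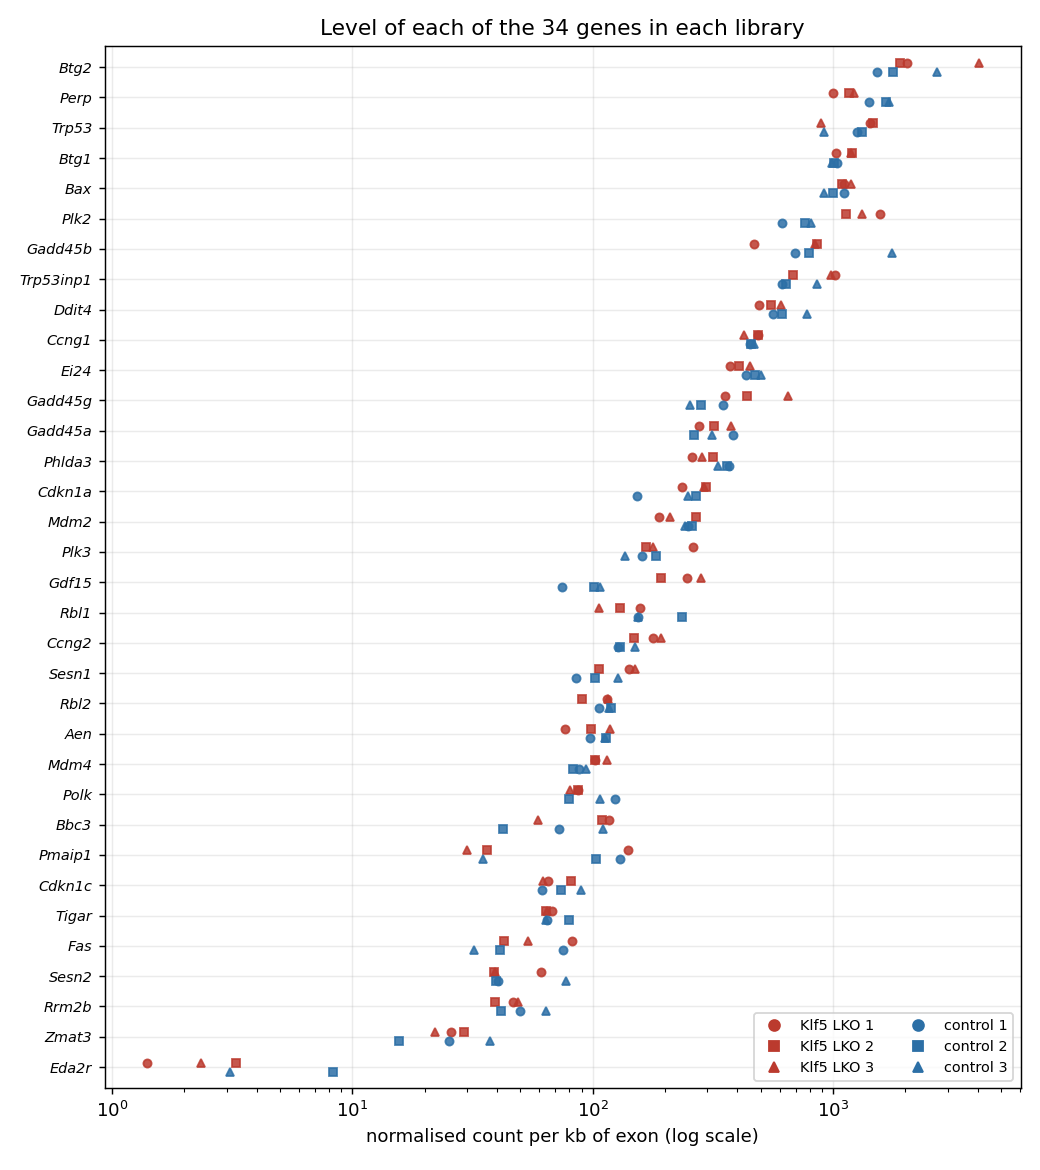
Normalised count per kilobase of exon (log axis) of each of the 34 genes, with 1 point per library, Klf5 LKO in red and control in blue. The genes run from Eda2r (mean 3.08) to Btg2 (mean 2332), and the library of Eda2r with 0 reads, control 1, has no point.

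Among p53 and its regulators, none of 4 genes was called. Trp53 held 5085, 5364 and 3721 normalised counts in the controls against 5768, 5943 and 3620.1 in Klf5 LKO. In both groups library 3 was the lowest and the groups overlapped, with a log2 fold change of 0.10 (95% confidence interval -0.33 to 0.53, adjusted p = 0.902). Mdm2, the ligase that marks p53 for breakdown and is itself raised by it, held 1270.0, 1315 and 1226 in the controls against 959.7, 1374 and 1067 in Klf5 LKO. Klf5 LKO 2 was above every control and the other two below, and the log2 fold change was -0.18 (interval -0.53 to 0.17, adjusted p = 0.741). Leaving out Klf5 LKO 2 gave -0.33, and leaving out Klf5 LKO 1 gave -0.07. Mdm4, which binds p53 and blocks its activation domain, held 1295, 1226 and 1386 in the controls against 1513, 1511 and 1706 in Klf5 LKO. All 3 Klf5 LKO values were above all control values, but the log2 fold change of 0.27 (SE 0.13) did not pass (adjusted p = 0.488). Trp53inp1, a p53-induced gene of autophagy and cell death, held 3964, 4142 and 5558 in the controls against 6599, 4407 and 6363 in Klf5 LKO, and the groups overlapped (log2 fold change 0.34, interval -0.04 to 0.72, adjusted p = 0.530).

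Of the 13 growth arrest genes, 1 rose and 0 fell, and the one that rose was not a cyclin-dependent kinase inhibitor. Plk2 (chromosome 13, 110395046 to 110400844, plus strand) held 2754, 3452 and 3627 normalised counts in the controls against 7071, 5073 and 5925 in Klf5 LKO. The lowest Klf5 LKO library was above the highest control. The means were 3278 ± 462 and 6023 ± 1003 (SD, n = 3 each), which differ by a log2 fold change of 0.87 (SE 0.15, interval 0.54 to 1.21, limma adjusted p = 0.0250). The call ended without Klf5 LKO 3 (adjusted p = 0.0803), control 1 (0.150) or control 2 (0.107), and with a term for leukocyte transcripts (0.0770), with log2 fold changes from 0.75 to 0.99 whichever library was left out. Its relative Plk3 held 406, 466 and 345 in the controls against 663, 423 and 450.4 in Klf5 LKO, where only library 1 stood apart (adjusted p = 0.658).

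Cdkn1a, which codes for the kinase inhibitor p21 and is the best known p53 target, held 543, 959 and 886 in the controls against 836, 1055 and 1033 in Klf5 LKO. Control 1 was the lowest library and the other two controls lay within the Klf5 LKO range. The log2 fold change was 0.33 (interval -0.14 to 0.79, adjusted p = 0.633), and it went from 0.07 without control 1 to 0.48 without control 2. Cdkn1c, which codes for the kinase inhibitor p57, held 126, 150.1 and 183 in the controls against 133, 165 and 127 in Klf5 LKO (adjusted p = 0.935). The atypical cyclin Ccng1, a steady p53 target, held 1586, 1598 and 1641 in the controls against 1718, 1707 and 1497 in Klf5 LKO. Its 6 libraries were within 1.15-fold of each other, and its log2 fold change of 0.03 had an interval of -0.25 to 0.30. The related Ccng2, which FOXO factors raise, held 695, 711 and 819.9 in the controls against 974, 811 and 1055 in Klf5 LKO. The groups overlapped by 1 library, and the log2 fold change of 0.35 did not pass (adjusted p = 0.474).

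The 3 Gadd45 genes, which code for small stress sensors that bind kinases and the clamp protein of replication, did not move alike. Gadd45g (chromosome 13, 51846678 to 51848468, plus strand) held 410.1, 330.3 and 299 in the controls against 419, 516 and 760.2 in Klf5 LKO. The groups did not overlap, though Klf5 LKO 1 and control 1 lay close, and the log2 fold change of 0.67 (SE 0.24, interval 0.14 to 1.20) did not pass (adjusted p = 0.309) and ranged from 0.44 to 0.87 when 1 library was left out. Gadd45a had a log2 fold change of 0.02 (interval -0.41 to 0.45). Gadd45b held 1101, 1269 and 2788 in the controls against 749, 1359 and 1339 in Klf5 LKO, and control 3 alone stood far above the rest (log2 fold change -0.50, adjusted p = 0.621). The log2 fold change of Gadd45b was -0.09 without control 3 and -0.76 without control 1. Leaving out 1 library thus moved its size both ways, while its sign stayed negative in all 6 such fits. With the leukocyte term, fitted to all 6 libraries, it was -0.93 (limma adjusted p = 0.0992). The differences between the 3 genes were not tested.

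The antiproliferative gene Btg2 held 4195, 4857 and 7447 in the controls against 5573, 5207 and 11099 in Klf5 LKO, so library 3 was the highest in each group. Its log2 fold change of 0.36 (adjusted p = 0.681) was 0.01 without Klf5 LKO 3 and 0.60 without control 3. Btg1 was steadier, between 5216 and 6306 in the 6 libraries, with a log2 fold change of 0.16 (interval -0.09 to 0.41). Of the genes of pocket proteins, which repress E2F genes, Rbl1 (p107) held 924, 1418 and 923 in the controls against 939.9, 776 and 639.9 in Klf5 LKO. The groups overlapped through Klf5 LKO 1, and the log2 fold change of -0.46 (SE 0.21) had an unadjusted p = 0.0463 and did not pass (limma adjusted p = 0.447). It was -0.60 without Klf5 LKO 1 and -0.25 without control 2. Rbl2 (p130) had a log2 fold change of -0.10 (interval -0.45 to 0.25).

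None of the 10 cell death genes was called by limma. Perp (chromosome 10, 18845020 to 18857073, plus strand), a membrane protein of desmosomes that is also a p53 target in dying cells, held 2747, 3248 and 3344 in the controls against 1951, 2280.5 and 2379 in Klf5 LKO. Every Klf5 LKO library was below every control, by a log2 fold change of -0.50 (SE 0.13, interval -0.79 to -0.21) that had an unadjusted p = 0.00299 and an adjusted p = 0.151. DESeq2 on the recovered reads called it (adjusted p = 0.0246, with 2.48% of genes called by that test), as did the authors' deposited table (log2 fold change -0.45, adjusted p = 0.0250, with 2.41% of genes called). The edgeR quasi-likelihood test did not call Perp (adjusted p = 0.178). Phlda3, a p53 target that restrains the kinase AKT, held 578, 564 and 518 in the controls against 406, 496 and 444 in Klf5 LKO. The groups did not overlap, and the log2 fold change of -0.31 (SE 0.18) did not pass (adjusted p = 0.583).

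The mitochondrial death genes overlapped between groups. Bax, which forms pores in the mitochondrial membrane, held 1750.0, 1574 and 1451 in the controls against 1748, 1722 and 1879 in Klf5 LKO, a log2 fold change of 0.17 (interval -0.12 to 0.45, adjusted p = 0.701). Bbc3, which codes for the Bax activator Puma, held 154, 90.1 and 235 in the controls against 249, 233 and 126 in Klf5 LKO (log2 fold change 0.39, interval -0.46 to 1.23), and that of Bbc3 went from 0.029 without control 2 to 0.72 without control 3. Pmaip1, which codes for the mitochondrial death protein Noxa, held 357, 281 and 95.5 in the controls against 385, 99.1 and 82.0 in Klf5 LKO. It was high in control 1, control 2 and Klf5 LKO 1 and low in the other 3 libraries. These 3 libraries with high Pmaip1 were also the 3 with the highest summed leukocyte markers, and with a leukocyte term its log2 fold change went from -0.54 to 0.15. Leaving out Klf5 LKO 1 gave -1.23, and leaving out Klf5 LKO 3 gave -0.12. The part of leukocytes in this pattern was not tested further. The death receptor gene Fas held 155, 85.3 and 66.0 in the controls against 170.1, 88.7 and 111 in Klf5 LKO (adjusted p = 0.840). The nuclease gene Aen, the endoplasmic reticulum gene Ei24 and Zmat3 had log2 fold changes of -0.16, -0.20 and 0.06. Eda2r, a receptor of the tumour necrosis factor family, held 0, 31 and 18 reads in the controls against 10, 26 and 13 in Klf5 LKO, too few to give its direction, and it was the only one of the 34 with a library at 0.

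Of the 7 genes of stress, metabolism and repair, 1 rose and 0 fell. Gdf15 (chromosome 8, 70629393 to 70632456, minus strand) held 138, 188 and 199 normalised counts in the controls against 459, 358 and 525 in Klf5 LKO. All 3 Klf5 LKO libraries were above all controls. The means were 175 ± 32.6 and 447 ± 84.2 (SD, n = 3 each), which differ by a log2 fold change of 1.35 (SE 0.25, interval 0.81 to 1.89, adjusted p = 0.0322). The call ended with the leukocyte term (adjusted p = 0.0942), with limma-voom (0.0589), with no filter on low genes (0.0552) and without any library but Klf5 LKO 2 (0.0614 without Klf5 LKO 1, 0.138 without Klf5 LKO 3, and 0.151, 0.124 and 0.0619 without control 1, 2 and 3), with log2 fold changes from 1.19 to 1.45 in these fits. The sestrins, which restrain growth signalling when nutrients are short, did not pass. Sesn1 held 340.3, 408 and 509 in the controls against 562, 423 and 596 in Klf5 LKO, with overlap (log2 fold change 0.33, adjusted p = 0.630), and Sesn2 had a log2 fold change of -0.13 (interval -0.88 to 0.61). Ddit4, another brake on growth signalling, had a log2 fold change of -0.23 (interval -0.59 to 0.12). The metabolic regulator Tigar, the ribonucleotide reductase gene Rrm2b and the bypass polymerase gene Polk had log2 fold changes of -0.08, -0.19 and -0.27, all with adjusted p of 0.680 or more.

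**Figure D2:**
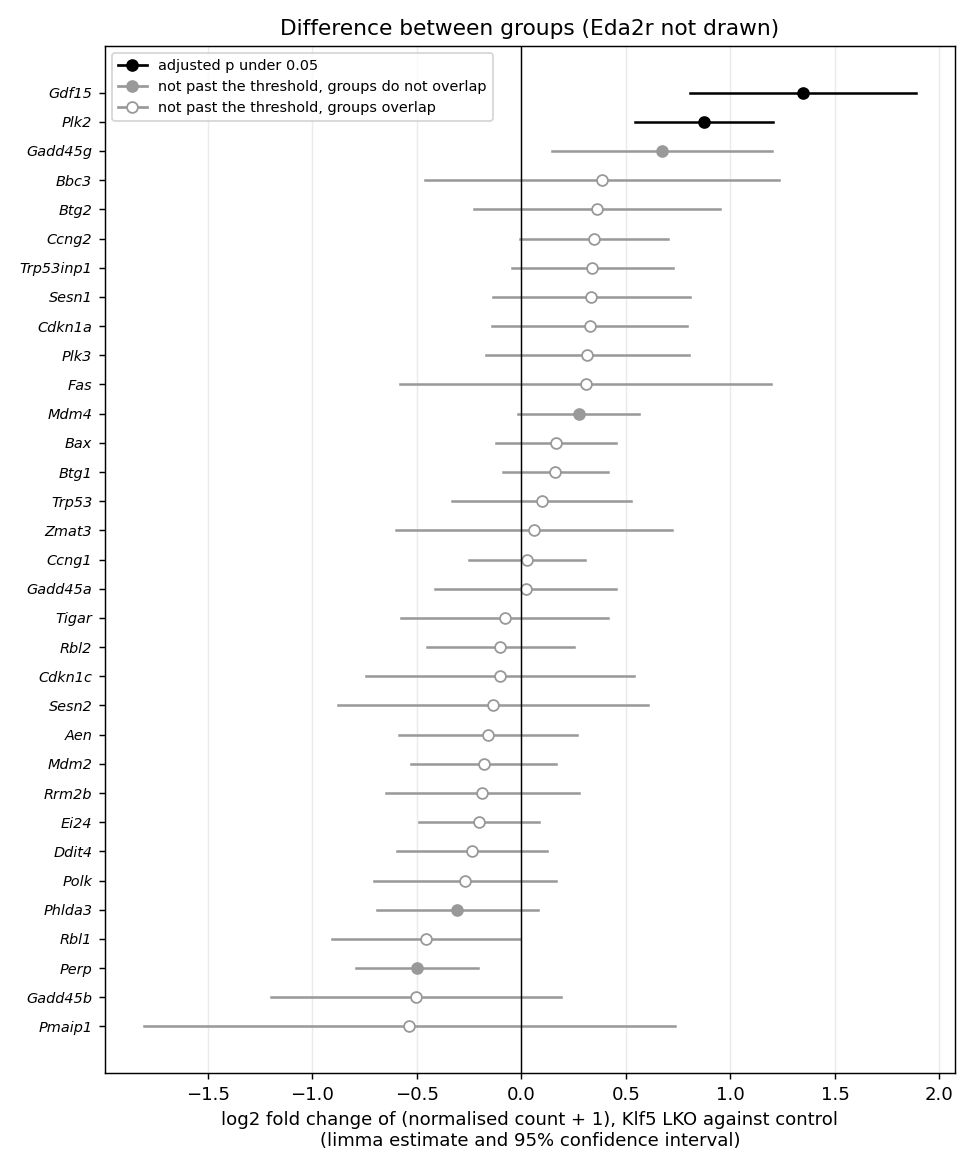
Log2 fold change of (normalised count + 1), Klf5 LKO against control, with its 95% confidence interval from limma for 33 of the 34 genes. Gdf15 (1.35) and Plk2 (0.87) are past the threshold, and Eda2r, whose interval runs from -2.35 to 3.38, is not drawn.

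Counted over the 34 genes, 6 had groups that did not overlap (17.6%), against 15.6% of all tested genes, so this count was near the background. The 4 higher in Klf5 LKO were Plk2, Gdf15, Gadd45g and Mdm4 (7.72% of all tested genes), and the 2 lower were Perp and Phlda3 (7.88%). Calls of all tested genes made up 0.623% with edgeR, 0.549% with limma-voom, 0.378% with the leukocyte term and 0.815% with the replicate block. Without 1 library they made up 0.78%, 0.585% and 0.363% (Klf5 LKO 1, 2 and 3) and 0.178%, 0.104% and 0.393% (control 1, 2 and 3). An unadjusted p under 0.05 was found for 5 of the 34 (14.7%), against 10.9% of all tested genes. Higher mean log2 values in Klf5 LKO were found for 19 of 34 (55.9%), against 49.2%. The ratio of the highest to the lowest of the 6 libraries was under 1.5 for 11 genes, from 1.5 to 2 for 12 and 2 or more for 10, with a median of 1.64. Plk2 and Gdf15 had ratios of 2.57 and 3.81 over the 6 libraries and of no more than 1.39 and 1.47 within a group. Pmaip1, by contrast, varied 4.69-fold within Klf5 LKO and 3.74-fold within control.

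**Figure D3:**
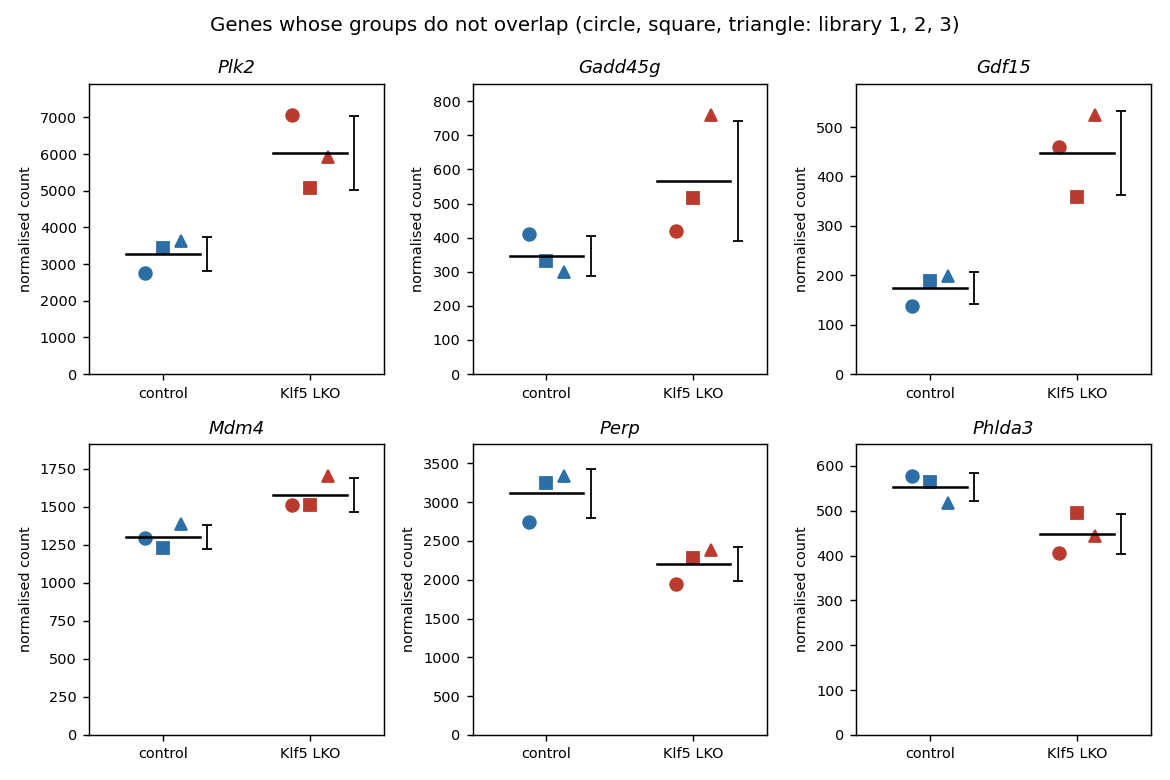
Normalised counts of the 6 genes whose groups do not overlap, with 1 point per library, the bar at the group mean and the whisker at 1 SD (n = 3 each). Plk2 lies at 2754 to 3627 in the controls against 5073 to 7071 in Klf5 LKO, and Perp at 2747 to 3344 and 1951 to 2379.

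**Figure D4:**
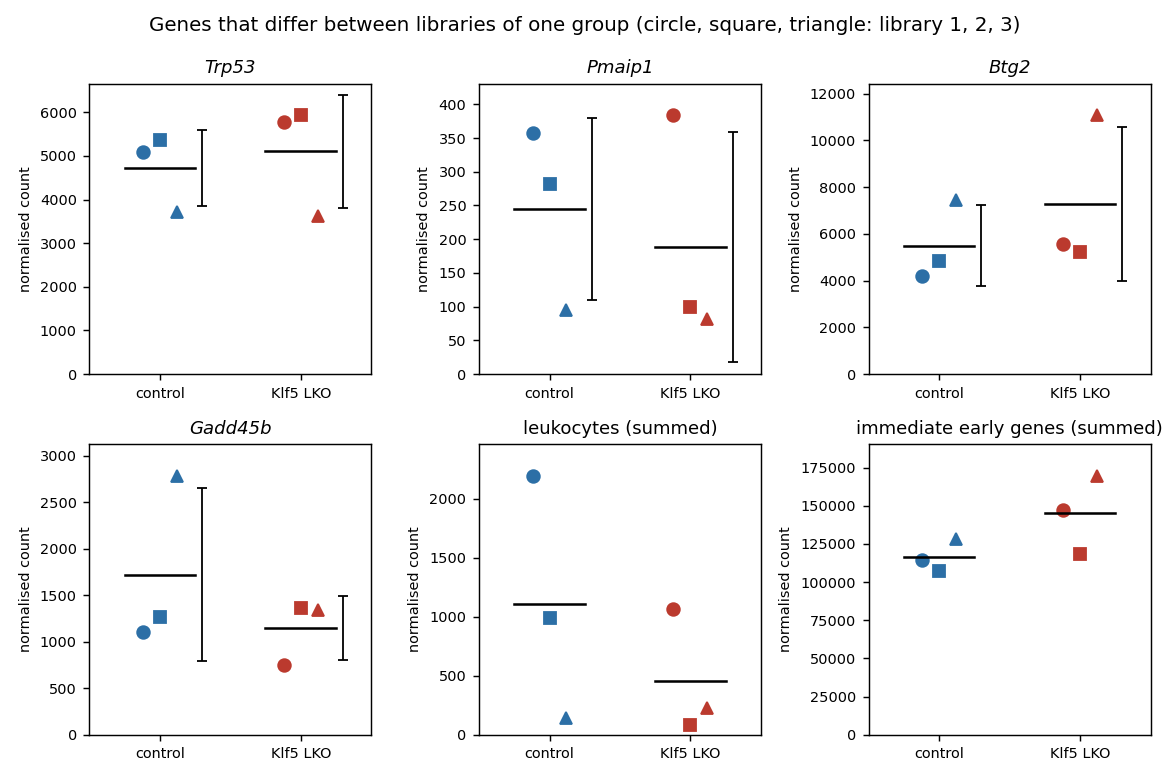
Normalised counts of 4 genes picked after their values were seen because libraries of 1 group differ, beside the summed leukocyte markers and summed immediate early genes of the same libraries. Bars are group means and whiskers 1 SD (n = 3 each, drawn for single genes only), and Pmaip1 and the leukocyte sum are both highest in control 1, control 2 and Klf5 LKO 1.

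Other genes of the pathway, from lists drawn up beside the 34, were mostly not called. Of 16 tested upstream regulators of p53, 0 were called by limma (median log2 fold change -0.15). Their groups did not overlap for 7 of 16, 4 higher and 3 lower, against 15.6% of all tested genes, and 3 had an unadjusted p under 0.05, against 10.9%. The smallest p-values were those of Usp7, which stabilises Mdm2 and p53 by removing ubiquitin (log2 fold change -0.34, adjusted p = 0.350), and of the Mdm2 partner Daxx (0.34, adjusted p = 0.423). Cdkn2a, which codes for the Mdm2 inhibitor Arf, had 0 reads in all 6 libraries. Of 32 further p53 target genes, 1 rose and 0 fell (median -0.05). It was Ccnd2, a D-type cyclin that drives rather than stops the cycle, with means of 1498 in the controls against 2889 in Klf5 LKO (log2 fold change 0.97, adjusted p = 0.0258). Among 19 genes of the Bcl2 family and caspase system 1 rose and 0 fell (median -0.04), namely Birc2, an inhibitor of cell death, with means of 3685 and 6573 (log2 fold change 0.83, adjusted p = 0.0246). Groups did not overlap for 9 of the 32 and 4 of the 19, against 15.6% of all tested genes. An unadjusted p under 0.05 was found for 6 of the 32 and 2 of the 19, against 10.9%. Of 18 other growth arrest genes, 0 were called by limma (median 0.03, 4 without overlap, 4 with an unadjusted p under 0.05), with the smallest p-values for the kinase inhibitor Cdkn2c (log2 fold change -1.01, adjusted p = 0.143) and Gas2l1 (0.36, adjusted p = 0.297). The call of Birc2 ended without control 1, 2 or 3 (adjusted p up to 0.150) and that of Ccnd2 without Klf5 LKO 2, control 1 or control 2 (up to 0.137), and both ended with the leukocyte term (0.0628 and 0.0868).

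The genes that p53 lowers indirectly, through p21 and the repressor complex DREAM, stood apart from the 34. All 16 tested had negative log2 fold changes, with a median of -1.03, and 4 fell while 12 did not pass. The 4 were the mitotic cyclins Ccnb1 (means of 708 in the controls against 289 in Klf5 LKO) and Ccnb2 (848 and 347), the proliferation marker Mki67 (2300.5 and 1194) and the cytokinesis motor gene Kif23 (669 and 309). Summed over the 16 genes, the libraries held 10681, 14409 and 9908 in the controls against 5526, 6590.3 and 5439.7 in Klf5 LKO, with no overlap. In 15 of the 16 genes the groups did not overlap, against 15.6% of all tested genes, but these genes are expressed together in dividing cells and are not separate observations. The part of p53, p21 and DREAM in their lower values was not tested. The 4 calls all ended without control 1, control 2, Klf5 LKO 2 or Klf5 LKO 3, with the leukocyte term and with no filter.

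Genes of 3 other pathways that share members of the 34 were compared in the same fit. Over all tested genes, 49.2% had positive log2 fold changes, 15.6% had groups without overlap and 10.9% had an unadjusted p under 0.05. Of the 15 genes of the ATF4 list, which holds Atf4 itself beside its targets, 1 rose and 0 fell. Among them 13 had positive log2 fold changes (median 0.40, 2 without overlap). The one called was Ppp1r15a, the stress gene Gadd34, with 980.3, 1138 and 1040.4 normalised counts in the controls against 3024, 1572 and 2604 in Klf5 LKO (log2 fold change 1.14, adjusted p = 0.0322). Its call ended without any library but Klf5 LKO 2 (adjusted p up to 0.152), with limma-voom (0.0593) and with no filter (0.0539). Of 13 immediate early genes, 0 were called by limma, while 6 had an unadjusted p under 0.05 and 11 had positive log2 fold changes (median 0.16, 5 without overlap). Egr1 and Myc had the smallest p-values (log2 fold changes 0.53 and 0.60, adjusted p = 0.151 and 0.162). The summed immediate early genes were 114476, 107307 and 127945 in the controls against 147243, 118586 and 169779 in Klf5 LKO, and library 3, where Btg2 was highest, had the highest sum in each group. Plk2 and Gdf15 are themselves induced by such stimuli as background knowledge, and the part of this response in their rise was not tested. The FOXO list holds the factor genes Foxo1, Foxo3 and Foxo4 beside FOXO targets. Of its 12 tested genes, 0 were called by limma (median 0.13, 2 without overlap, 4 with an unadjusted p under 0.05), with Pik3ip1 and Irs2 first (log2 fold changes 0.59 and 0.84, adjusted p = 0.145 and 0.210).

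**Figure D5:**
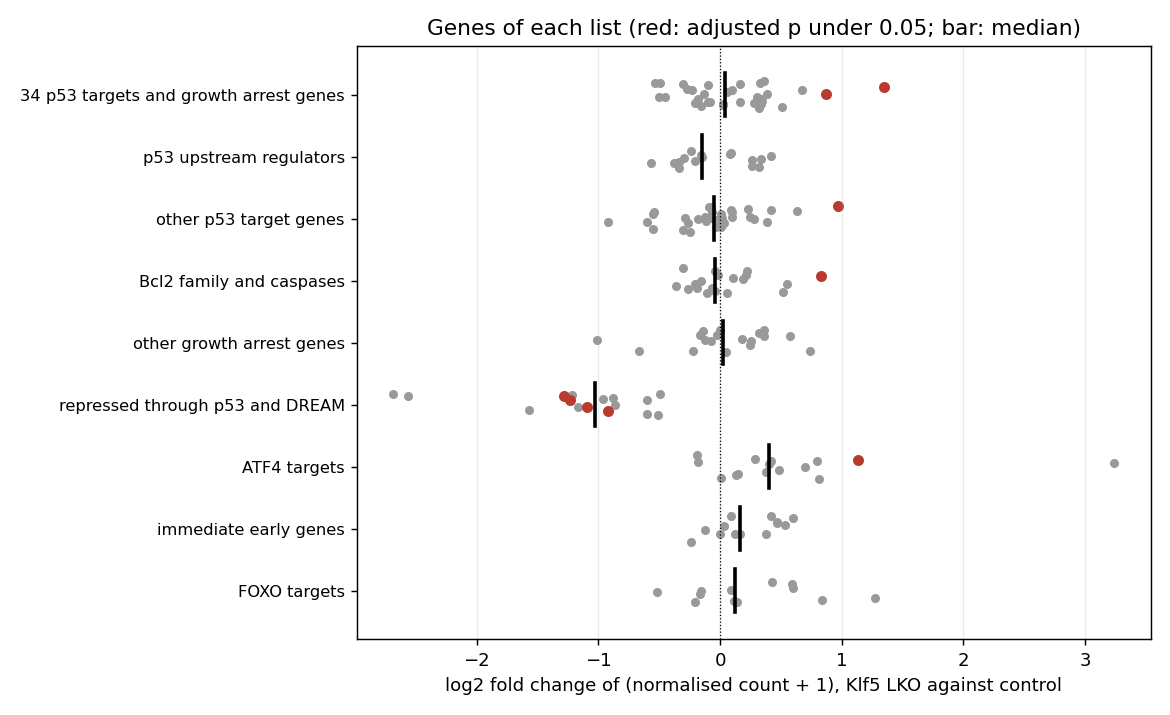
Log2 fold changes of the tested genes of each list, with called genes in red and a bar at the list's median. The medians lie at 0.04 for the 34 genes, -1.03 for the genes repressed through p53 and DREAM and 0.40 for the ATF4 list, which includes Atf4 itself.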

How the data were processed

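Each single-end library started from 4 ng of total RNA and went through 10 pre-amplification and 7 enrichment cycles, per the labels' protocols. There were no molecular identifiers, so PCR copies count as reads. The submitters' processing notes name mm10, TopHat, Bowtie2 and DESeq2. The sources used here name no counter and no annotation, and overlapping genes may share reads. The authors deposited 1 table of signal per gene and library, reads per gene scaled by a single factor for each library. Whole reads were recovered for 100% of values within a tolerance of 0.001. The authors' deposited comparison gives log2 fold changes shrunken towards 0, judged from the values, with a Wald statistic (a score) and p-values.

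Because the values are normalised, limma 3.58.1 (lmFit, eBayes with trend, R 4.3.3) was fitted to log2(value + 1), a pseudocount of 1 that understates the change of low genes, for 13490 genes with a mean of at least 10. Two-sided p-values were adjusted by Benjamini-Hochberg across every tested gene. Adjusted p-values in the text come from this fit unless another tool is named. Tests on the recovered reads with edgeR 4.0.16, DESeq2 1.42.0 and limma-voom were alternatives, beside other scalings, filters and pseudocounts, a leukocyte term (the mean log2 value of 9 markers), and leaving out each library. The fit was checked on simulated counts. The 34 genes, the other lists and the alternatives were chosen with earlier results of these data known. All 34 genes were named, with Klf5 and, of each other list, up to 4 called genes by p, or 2 as values where none was called. Cdkn2a, Sfn, Trib3, Sctr, Cftr, Krt19 and Krt7 were named after their values were seen. Atf4, Foxo1, Foxo3 and Foxo4 were named to give the make-up of their lists. Exon lengths and positions are from GENCODE M21, in which all 34 were found, and promoter windows from RefSeq. A count of 0 reads allows 3 reads, or 2.24 to 4.74 normalised counts depending on the library, covering counting error only.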

Additional observations from a re-analysis of the deposited data

How the results depend on the processing

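Of all genes, 88 were called, against 335 with DESeq2, 51 with the leukocyte term and 14 to 105 when 1 library was left out. Of the 34 genes, 2 were called, against 1 with no filter, 1 with limma-voom, 0 with the leukocyte term, and 0 to 2 when 1 library was left out. That count was 0 without Klf5 LKO 3, control 1 or control 2. Among the fits made here, Perp was called by DESeq2 only (log2 fold change -0.50), and it was also called in the authors' deposited comparison. Klf5 ranged from -0.98 to -0.84 on the log2 scale when 1 library was left out. The cause of these changes was not tested, except that leaving out a library leaves fewer samples.

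None of the genes that changed sign was called in any fit. Eda2r went from 0.51 to -0.017 with a pseudocount of 5, -0.67 with edgeR, -0.68 with DESeq2 and -0.43 with the leukocyte term, Zmat3 from 0.06 to -0.027, -0.023 and -0.14 with the last 3 of these, Pmaip1 to 0.15 with the leukocyte term and Gadd45a to -0.031 with limma-voom. When 1 library was left out, the log2 fold changes ranged from -0.066 to 0.33 for Trp53, -0.23 to 0.033 for Cdkn1c, -0.0088 to 0.090 for Ccng1, -0.11 to 0.16 for Gadd45a, -0.35 to 0.18 for Sesn2, -1.14 to 1.68 for Eda2r, -0.26 to 0.36 for Zmat3, -0.31 to 0.0025 for Aen, -0.16 to 0.016 for Rbl2 and -0.13 to 0.024 for Tigar. Those of genes that kept their sign could also move by over 1.5 times, from 0.042 to 0.65 for Fas, 0.12 to 0.44 for Plk3, -0.33 to -0.026 for Rrm2b, -0.33 to -0.10 for Ddit4, -0.45 to -0.13 for Polk, 0.23 to 0.53 for Trp53inp1, 0.19 to 0.48 for Sesn1, 0.10 to 0.24 for Bax and -0.27 to -0.14 for Ei24.

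The titles number the libraries 1 to 3 in each group without saying that a number marks a pair. Same-numbered libraries deviated from their group means with correlations over genes of 0.18, -0.01 and 0.11, and each correlated best with its own number except Klf5 LKO 2, control 2 and control 3. With the replicate number as a block, 110 genes were called and the same 2 of the 34.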

Other observations

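Outside the 34 genes, 2 of the genes of related lists that were not called and had groups without overlap were picked after their values were seen. The others are counted above by list. Sfn, which codes for the p53-induced protein 14-3-3 sigma that holds cells before mitosis, lay at 2899, 2552 and 2555 normalised counts in the controls against 1667, 1991 and 1808 in Klf5 LKO. Every Klf5 LKO library was below every control, with a log2 fold change of -0.55 (limma adjusted p = 0.0935). Trib3, a stress pseudokinase among the ATF4 targets, lay at 239, 231 and 203 in the controls against 439, 392 and 344 in Klf5 LKO, all above the controls (log2 fold change 0.80, limma adjusted p = 0.156).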
